A study of Rattus norvegicus with 10 samples.

Results

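A group of 10 genes that restrain feeding was followed in right brain tissue of rats that had just breathed an aroma compound. They were Pomc, Mc3r, Mc4r, Glp1r, Nmu, Cck, Lepr, Nucb2, Insr and Adcyap1, and every probe set that the platform annotation assigns to a single one of them was used. That gave 17 of the 31042 probe sets tested, for 9 of the 10 genes. Lepr has 7 probe sets, Insr and Adcyap1 have 2 each, and the other 6 measured genes have 1 each. No probe set carries the symbol Mc3r, so that gene was not analysed here.

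The study held 10 male Wistar rats aged 7 weeks on a chow diet, 5 exposed for 5 min to vapor of distilled water (control) and 5 to vapor of DMHF, a dimethylated hydroxyfuranone known from the aroma of strawberry. The air they breathed was led over 5 mL of either liquid, and the rats were killed 10 min after inhalation, ahead of the dark period. Each array carried RNA of 1 rat, and the only comparison is DMHF against control. The tissue was a whole brain side, so a transcript confined to a small nucleus is diluted by the rest, and fewer cells of a type and less RNA per cell cannot be told apart.

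The melanocortin system sits in the hypothalamus. Neurons of the arcuate nucleus cut the precursor POMC into melanocortin peptides, which act on the receptors MC3R and MC4R to lower food intake. Leptin from fat and insulin from the pancreas reach these neurons through LEPR and INSR, and gut and brainstem signals such as GLP-1 and cholecystokinin act beside them. Neuromedin U, nesfatin-1 (cut from NUCB2) and PACAP (encoded by Adcyap1) are further peptides that reduce feeding when given into the brain.

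As sequence context for 2 peptide precursors, the 250 bases before the RefSeq start site are shown: Nmu as the member with the smallest p, and Pomc as the melanocortin precursor. Capitals mark matches on either strand to the TATA box letters TATAAA or to the cyclic AMP response element half-site TGACG, which do not overlap each other here.
Nmu, GRCr8 chr14:32198693-32198942, plus strand: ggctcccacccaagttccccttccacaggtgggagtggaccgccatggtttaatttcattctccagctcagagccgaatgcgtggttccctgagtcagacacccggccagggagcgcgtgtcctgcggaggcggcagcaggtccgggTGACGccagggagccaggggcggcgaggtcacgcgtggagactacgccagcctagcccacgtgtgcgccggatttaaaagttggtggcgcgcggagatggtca
Pomc, GRCr8 chr6:32659103-32659352, plus strand: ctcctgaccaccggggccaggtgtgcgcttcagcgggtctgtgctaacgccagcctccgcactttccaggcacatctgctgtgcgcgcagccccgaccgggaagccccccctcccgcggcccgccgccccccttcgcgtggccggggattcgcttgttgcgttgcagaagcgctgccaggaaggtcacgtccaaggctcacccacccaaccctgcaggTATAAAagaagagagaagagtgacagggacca
The Nmu window held TGACG, which begins 103 bases before the start, and no TATAAA. The Pomc window held TATAAA, 32 bases before the start, and no TGACG. RefSeq windows were at hand for 8 of the 10 genes (Cck and Nucb2 have none here). TATAAA was found in 2 of the 8, Pomc and Adcyap1, against 12.9% of 33469 rat promoters. In Adcyap1 it begins 248 bases before the start, near the far end of the window. TGACG was found in 2 of the 8, Nmu and Insr, against 18.2%. These are matches of letters, and no binding was measured.

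No satiety gene passed the test between DMHF and control rats. At an adjusted p under 0.05 (limma, Benjamini-Hochberg over 31042 probe sets) 0 of the 17 probe sets were called, where the share over all probe sets was also 0%. The adjusted p of the members ran from 0.868 to 1. At an unadjusted p under 0.05, limma listed 2 of the 17, Nmu and 1 probe set of Lepr, both higher in DMHF. That is 11.8% of the members against 5.48% of all probe sets, of which 3.23% were higher and 2.25% lower. The exact two-sided permutation test over all assignments of the rats to groups listed 1 of the 17 at an unadjusted p under 0.05, Nmu, against 5.14% of all. Means were higher in DMHF for 10 of the 17 and lower for 7 (58.8% higher against 53.2% of all probe sets). The groups overlapped for all 17, where 0.867% of all probe sets had no overlap. The 10 genes, like the lists of partners below, were chosen with earlier results of these data known. The unadjusted p and these shares are therefore given as a description.

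All differences between rats were very small on the deposited log2 scale. They are given in millionths of a log2 unit, as DMHF minus control or as a rat's distance from the control mean, and do not translate into a fold change of RNA. For a given probe set they are also set against its within-group SD, the pooled spread between rats of a group. That SD ran from 0.673 (Insr) to 10.9 millionths (Cck) among the members, with a median of 2.83 against 2.17 over all probe sets. The size of the difference had a median of 0.356 within-group SD over the 17, against 0.458 over all probe sets. It ran from 0.0638 SD to 1.64 SD.

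**Figure D1:**
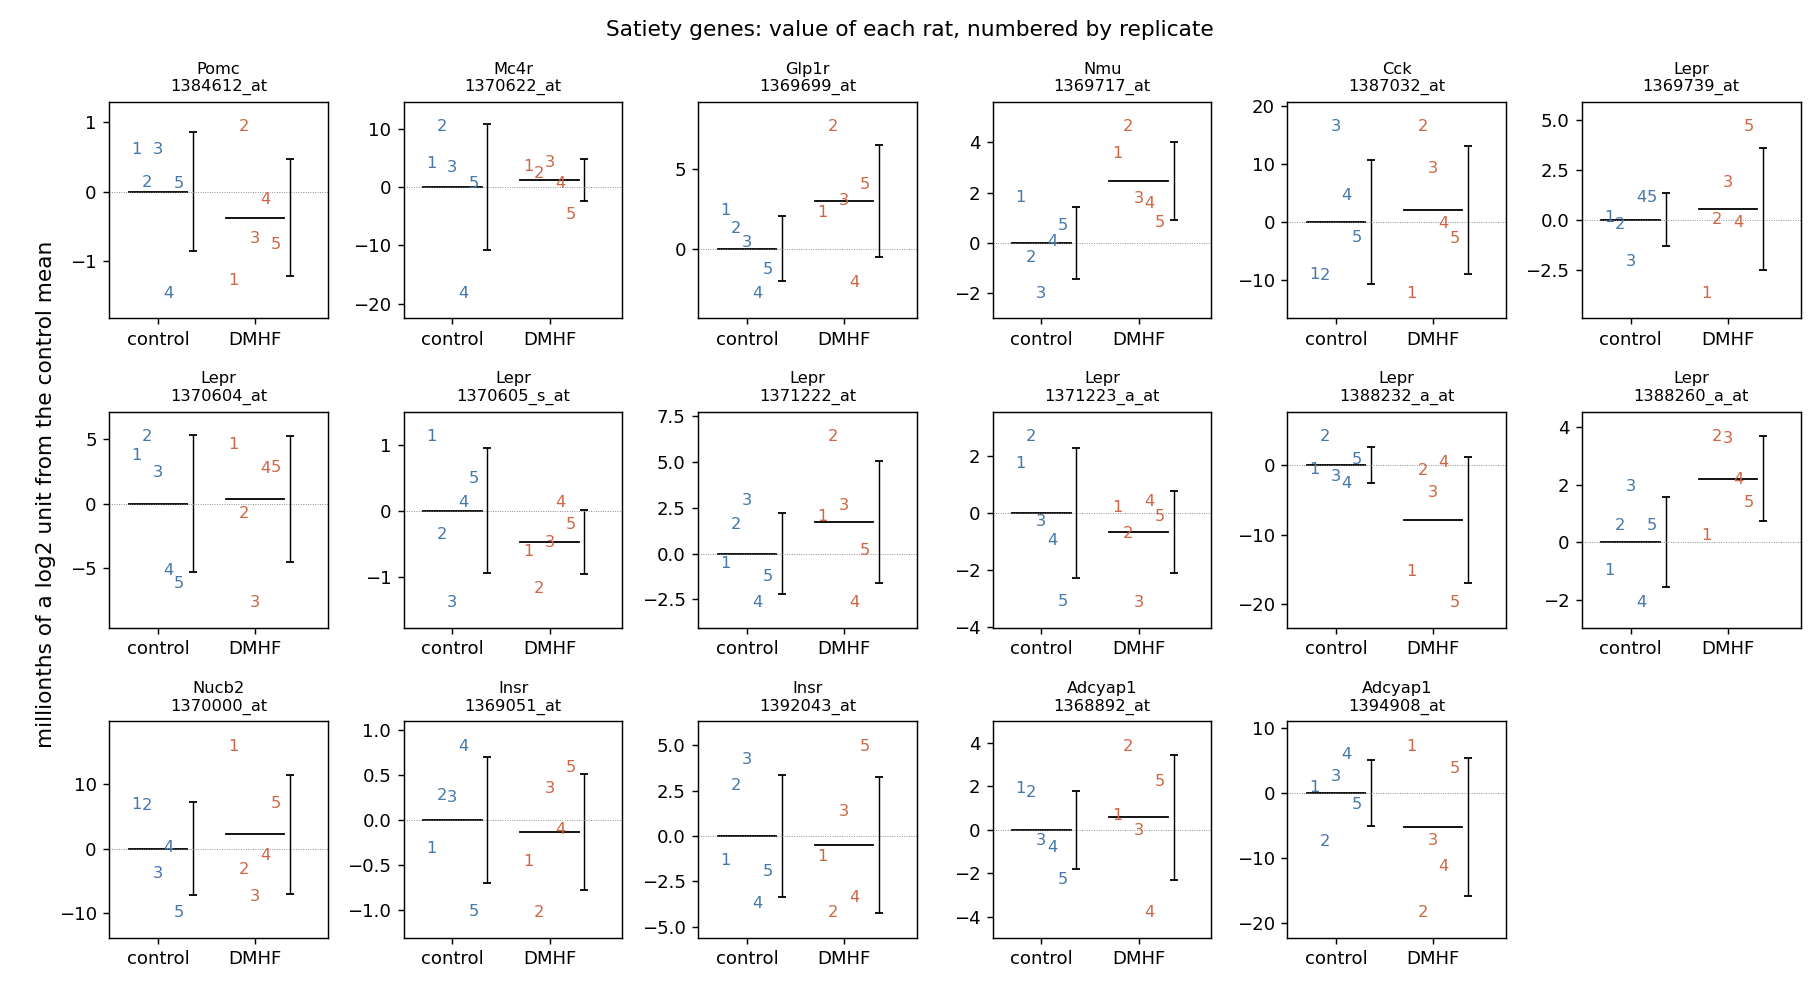
Value of each rat for the 17 probe sets, in millionths of a log2 unit from the control mean, with the replicate number as the plotting symbol (blue control, orange DMHF), a bar at the group mean and an error bar of 1 SD (n = 5 each). The groups overlap in every panel, and for Nmu all 5 DMHF rats lie above the control mean.

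Among the peptide precursors, Nmu had the largest difference in units of its spread. Neuromedin U, its product, is made in the hypothalamus, brainstem and pituitary as well as the gut. The Nmu probe set was dim, with a mean of 6.34 on the deposited log2 scale against an array median of 7.24. The control rats stood at 1.82, -0.589, -2.0, 0.0596 and 0.705 millionths from their mean (replicates 1 to 5). The DMHF rats stood at 3.55, 4.62, 1.77, 1.57 and 0.819. All 5 DMHF rats thus lay above the control mean and 2 of them above every control, while 4 control rats lay below every DMHF rat and control replicate 1 fell among them. The difference was 2.47 millionths (SE 0.927, 95% interval 0.364 to 4.57), or 1.64 within-group SD. Its adjusted p was 0.868 by limma (unadjusted 0.0264), and the exact permutation test gave an unadjusted p of 0.0397. With single rats left out the difference ran from 1.93 to 2.92 and the unadjusted limma p from 0.0136 to 0.0603. It was above 0.05 without control replicate 2 or 3 or DMHF replicate 1 or 2. With the arrays shifted to a common median the unadjusted limma p was 0.425 and the difference 2.42. The array medians differ by up to 15.2 millionths, against a within-group SD of 1.5 for Nmu. The shift thus adds spread between arrays, and its p cannot show how stable the Nmu difference is.

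Pomc, the melanocortin precursor, did not pass the test. Its probe set was also dim (mean 6.46 on the deposited log2 scale, array median 7.24). Control rats stood at 0.605, 0.126, 0.606, -1.46 and 0.122 millionths from their mean, and DMHF rats at -1.28, 0.932, -0.672, -0.111 and -0.758. Only 1 DMHF rat, replicate 2, lay above the control mean, and it was the highest of all 10, while control replicate 4 was the lowest. The difference was -0.379 (SE 0.552, 95% interval -1.63 to 0.872), or -0.448 SD (limma unadjusted p = 0.510, adjusted p = 1). Without control replicate 4 it was -0.743, and without DMHF replicate 1 it was -0.153.

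The pituitary also makes Pomc, so its markers are set beside it. All 10 measured genes of 11 in that list had higher means in DMHF (100%, against 53% of all genes). Cga stood at 5397 millionths (SE 1260, limma adjusted p = 0.73). Its exact permutation unadjusted p was 0.00794, the smallest that test can reach. Tshb stood at 5287 (SE 1610, limma adjusted p = 0.815, exact permutation unadjusted p = 0.0317). The exact test listed these 2 of the 10 at an unadjusted p under 0.05 (20%, against 4.83% of all genes). Other genes of the list were near 0, such as Prl at 0.434 (SE 6.57), and 1 of the 10 had a mean level above the array median. The summed list ran from -7180 to 9290 millionths from the control mean in control rats and from 8730 to 13200 in DMHF rats. Nearly all of that sum came from Cga and Tshb. Tbx19, the transcription factor of the pituitary cells that make corticotropin, differed by 1.57 (SE 1.90). Whether pituitary tissue had a part in the Pomc values was not tested.

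Cck encodes cholecystokinin, which the cortex and hippocampus make in quantity besides the gut. The control rats stood at -9.03, -9.20, 16.4, 4.47 and -2.63 millionths and the DMHF rats at -12.3, 16.4, 9.17, -0.296 and -2.94. Each group held both high and low rats, and the highest DMHF rat and the highest control rat stood at the same rounded value. The difference of 2.00 (SE 6.57, 95% interval -12.9 to 16.9) was 0.183 SD. Its sign turned when DMHF replicate 2 was left out (-1.6).

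Nucb2, the precursor of nesfatin-1, was spread nearly as widely. Control rats stood at 6.90, 6.65, -3.90, 0.237 and -9.88, and DMHF rats at 15.8, -3.28, -7.45, -1.0 and 6.95. DMHF replicates 1 and 5 lay above every control, and the other 3 lay below the control mean. The difference was 2.20 (SE 4.97), or 0.267 SD, and -1.19 without DMHF replicate 1.

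Adcyap1, which encodes PACAP, was measured by 2 probe sets that went opposite ways. On 1368892_at the control rats stood at 1.91, 1.71, -0.512, -0.811 and -2.29 and the DMHF rats at 0.676, 3.84, -0.0514, -3.82 and 2.24. DMHF rats held both the highest and the lowest value, and the difference was 0.577 (SE 1.46), or 0.241 SD. On 1394908_at the control rats stood at 0.789, -7.50, 2.54, 5.89 and -1.71 and the DMHF rats at 7.15, -18.4, -7.28, -11.3 and 3.80. There DMHF replicates 2 and 4 lay below every control and replicate 1 above every control, with a difference of -5.21 (SE 5.00), or -0.628 SD. Over the 10 rats, with group means removed, the 2 probe sets were not correlated (Pearson r = -0.08, Spearman rho = -0.14, exact permutation within groups p = 0.880 and 0.748).

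Among the receptors, Glp1r had the next largest difference of a gene with 1 probe set. GLP1R binds the incretin GLP-1 in the hypothalamus and brainstem. The Glp1r probe set had a mean of 6.73 on the deposited log2 scale, below the array median of 7.24. Control rats stood at 2.37, 1.29, 0.395, -2.77 and -1.29 millionths and DMHF rats at 2.28, 7.61, 3.03, -2.12 and 3.99. DMHF replicates 2, 3 and 5 lay above every control, while DMHF replicate 4 lay below 4 of the 5 controls. The difference was 2.96 (SE 1.74, 95% interval -0.984 to 6.90), or 1.03 SD (limma unadjusted p = 0.124, adjusted p = 0.950, exact permutation p = 0.135). With single rats left out it stayed above 0, from 1.79 without DMHF replicate 2 to 4.23 without DMHF replicate 4.

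Mc4r, the receptor whose loss causes obesity in rodents and people, was dominated by 1 control rat. Its probe set was dim as well (mean 6.42 on the deposited log2 scale). Control rats stood at 4.02, 10.3, 3.32, -18.2 and 0.559 millionths and DMHF rats at 3.57, 2.27, 4.15, 0.605 and -4.66. Control replicate 2 was the highest and control replicate 4 the lowest, and all 5 DMHF rats lay between them. The difference was 1.19 (SE 4.82, 95% interval -9.75 to 12.1), or 0.148 SD, and it was -3.36 without control replicate 4. The group medians differed the other way from the means, by -1.05.

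Insr, the insulin receptor, had a lower mean in DMHF on both probe sets, and neither passed the test. Both were dim (means 6.36 on 1369051_at and 6.67 on 1392043_at, on the deposited log2 scale). On 1369051_at control rats ranged from -1.02 to 0.819 millionths and DMHF rats from -1.03 to 0.581, with a difference of -0.131 (SE 0.457), or -0.194 SD. On 1392043_at control rats ranged from -3.72 to 4.21 and DMHF rats from -4.23 to 4.94, with a difference of -0.492 (SE 2.14), or -0.139 SD. The ranges of the groups nearly coincide on both. Over the rats the probe sets had r = 0.49 and rho = 0.39 (exact permutation within groups p = 0.174 and 0.286), and r = 0.27 without the 2 rats farthest from the median.

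**Figure D2:**
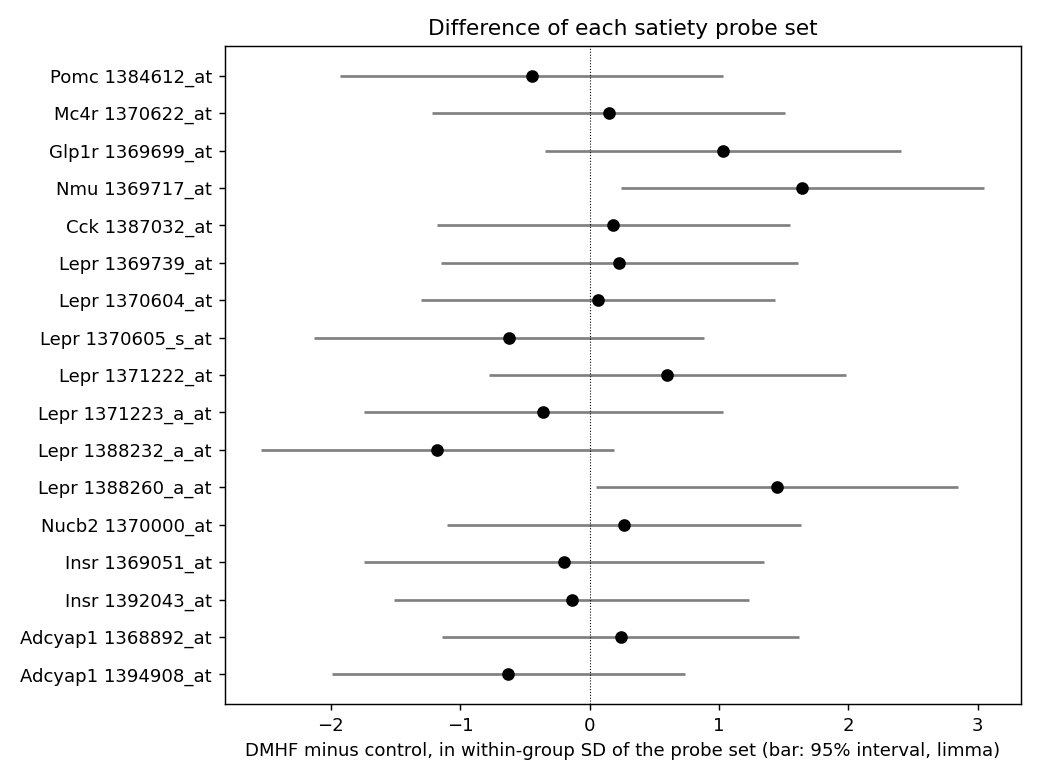
DMHF minus control for each of the 17 probe sets, in units of the within-group SD of that probe set, with the 95% interval of limma (n = 5 per group). The interval leaves out 0 for Nmu (0.243 to 3.05) and for Lepr 1388260_a_at (0.051 to 2.85), and neither passes after adjustment over all probe sets.

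The leptin receptor gene makes several spliced forms. The long form signals through JAK2 and STAT3 in hypothalamic neurons, and short forms are abundant in the choroid plexus and brain vessels. Its 7 probe sets are annotated to 5 different GenBank transcript records, and which spliced form each detects was not tested. Their differences had 4 positive and 3 negative signs.

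The widest separation upward was on 1388260_a_at, also a dim probe set (mean 6.21 on the deposited log2 scale). Control rats stood at -0.982, 0.577, 1.92, -2.11 and 0.589 millionths and DMHF rats at 0.223, 3.67, 3.60, 2.17 and 1.37. All 5 DMHF rats lay above the control mean and 3 above every control, and 2 controls lay below every DMHF rat. The difference was 2.21 (SE 0.939, 95% interval 0.0774 to 4.34), or 1.45 SD. Its limma unadjusted p was 0.0437 (adjusted p = 0.894), and the exact permutation test gave 0.0714. With the arrays shifted to a common median the unadjusted limma p was 0.510 and the difference 2.16. As for Nmu, the shift adds spread between arrays (medians up to 15.2 millionths apart, against a within-group SD of 1.52). With single rats left out the unadjusted limma p ran from 0.0185 to 0.0984, and it stayed under 0.05 only without DMHF replicate 5, DMHF replicate 1 or control replicate 3.

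The widest separation downward was on 1388232_a_at. Control rats stood at -0.576, 4.09, -1.58, -2.70 and 0.758 and DMHF rats at -15.3, -0.750, -4.00, 0.400 and -19.8. DMHF replicates 1 and 5 lay far below all other rats, and the SD was 9.10 in DMHF against 2.62 in control. The difference was -7.89 (SE 4.03, 95% interval -17.0 to 1.26), or -1.18 SD (limma unadjusted p = 0.0828, adjusted p = 0.931). It was -4.91 without DMHF replicate 5.

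The other 5 Lepr probe sets differed by at most 0.624 SD in size. On 1370605_s_at, the brightest, control rats ranged from -1.40 to 1.13 millionths and DMHF rats from -1.18 to 0.120. The DMHF range lay inside that of the controls, with a difference of -0.471 (SE 0.502). The differences of the remaining 4 were 1.70 (SE 1.72) on 1371222_at, 0.542 (SE 1.43) on 1369739_at, 0.324 (SE 3.07) on 1370604_at and -0.680 (SE 1.17) on 1371223_a_at. On 1370604_at the difference changed sign in 5 of the 10 fits that leave out a rat.

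Probe sets of Lepr mostly did not follow each other over the rats. With group means removed, the 21 pairs had Pearson correlations from -0.73 to 0.92 with a median of -0.06. Among the 23 pairs of probe sets within a gene (Lepr, Insr and Adcyap1), 1 passed an exact permutation test within groups after Benjamini-Hochberg adjustment of Pearson's r. This was 1370604_at with 1371223_a_at, with r = 0.92 (p = 0.000278, adjusted 0.00639) and rho = 0.87 (p = 0.00528, adjusted 0.116), and r = 0.82 without the 2 rats farthest from the median. These probe sets are annotated to different records, whereas 1370604_at with 1370605_s_at (r = -0.08) and 1371222_at with 1371223_a_at (r = 0.03) share a record. The most opposed pair was 1370605_s_at with 1371222_at, with r = -0.73 and rho = -0.81 (exact permutation p = 0.00708 and 0.0101, adjusted 0.0814 and 0.116).

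**Figure D3:**
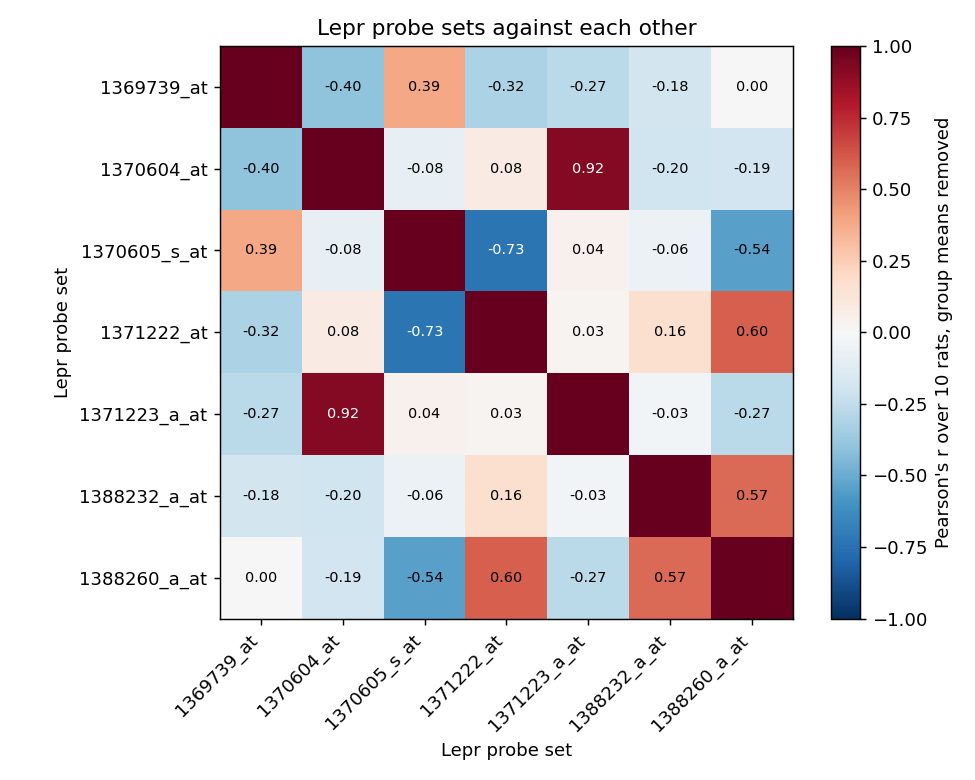
Pearson correlation between the 7 Lepr probe sets over 10 rats after subtraction of the group means, with blue for negative and red for positive r. A single pair, 1370604_at with 1371223_a_at, reaches 0.92, and the median of the 21 pairs is -0.06.

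Across genes, each member was taken by its brightest probe set. Of the 36 pairs of the 9 genes, 0 passed an exact permutation test within groups after adjustment of Pearson's r, and 3 had an unadjusted p under 0.05. The closest pair was Glp1r with Adcyap1 (1368892_at), with r = 0.93 (p = 0.00222, adjusted 0.0799) and rho = 0.95 (p = 0.00139, adjusted 0.050). Without the 2 rats farthest from the median of Glp1r, r was 0.78. The next were Cck with Nucb2 (r = -0.72, rho = -0.75, p = 0.0349 and 0.0282, adjusted 0.433 and 0.508) and Nmu with Insr (r = -0.72, rho = -0.65, p = 0.0361 and 0.0722, adjusted 0.433 and 0.782), and all 3 pairs share arrays.

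A search ran over the probe sets of all other single genes, leaving out symbols that start with LOC or RGD. The pattern over the 10 rats most like that of Glp1r was again Adcyap1 1368892_at (r = 0.926). This is the same correlation as in the pairs above and rests on that probe set. The other Adcyap1 probe set, 1394908_at, was not correlated with 1368892_at (r = -0.08). For the other members the most alike were Trabd for Pomc (0.971), Lrtm2 for Mc4r (0.925), Mthfsd for Nmu (0.952), Baiap2 for Cck (0.960) and Zbtb20 for Lepr (0.983). Spast was most like Nucb2 (0.975), Apc most like Insr (0.957) and Arhgap9 most like Adcyap1 (0.971). Each is the highest of at least 20559 correlations over 10 rats and is given as a description.

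The extreme values were not spread evenly over the rats. DMHF replicate 2 had the highest value of all 10 rats on 7 of the 17 probe sets, among them those of Nmu, Glp1r and Pomc, and the lowest on 3. That is 41.2% and 17.6% of the members, where the same rat was highest on 13.5% and lowest on 10.3% of all probe sets. Control replicate 2 was highest on 4 (23.5%, against 9.04% of all) and control replicate 4 lowest on 4 (23.5%, against 9.45%). The 17 are not independent, since 11 belong to 3 genes, and the difference from all probe sets was not tested. The SD was larger in DMHF than in control for 10 of the 17 (58.8%), against 50.8% of all probe sets.

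The partners of these genes did not pass the test either. A set of 6 lists of other genes of the pathways held 99 genes, of which 86 were measured, each by its brightest probe set. By limma 0 of the 86 had an adjusted p under 0.05, as for all 14217 genes (0%). At an unadjusted p under 0.05 it was 0 higher and 1 lower (against 4.80% of all genes in either direction). The exact permutation test listed 1 higher and 1 lower, Pik3r2 and Gsk3b, at an unadjusted p under 0.05, which is 2.33% against 4.83% of all genes. Pik3r2, a regulatory subunit of PI3-kinase named after its value was seen, had a difference of 0.292 millionths (SE 0.234), which is 1.81 SD (exact permutation p = 0.0278). Means were higher in DMHF for 52 of the 86 and lower for 34 (60.5% higher against 53% of all genes), with a median difference of 0.178 within-group SD against 0.0477 over all genes.

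In the melanocortin list 11 of 15 measured genes had higher means, with a median of 0.173 SD. The 2 genes of each list with the smallest limma p are named, with unadjusted p from the exact permutation test. Here they were Asip, the agouti antagonist of melanocortin receptors, at 0.803 millionths (exact p = 0.111), and the receptor Mc5r at 0.988 (exact p = 0.155). In the GLP-1 and glucagon family 4 of 8 were higher and 4 lower (median 0.0788 SD). The incretin Gip stood at 5.23 (exact p = 0.159) and the glucagon receptor Gcgr at 2.92 (exact p = 0.278). Among the partners of neuromedin, cholecystokinin and PACAP 6 of 8 were higher (median 0.486 SD). Adcyap1r1, the PACAP receptor, stood at 1.94 (exact p = 0.131) and Nucb1, the paralog of Nucb2, at 2.39 (exact p = 0.206).

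In the leptin list 5 of 12 were higher and 7 lower (median -0.0496 SD). Socs1 at 2.84 (exact p = 0.111) and Socs3 at 1.89 (exact p = 0.0714) block signalling of cytokine receptors through JAK kinases. In the insulin list 10 of 18 were higher and 8 lower (median 0.0791 SD). The kinase Gsk3b, which insulin signalling inhibits, had the smallest p of all 86 genes. Its difference was -18.6 millionths (SE 5.73), which is -1.95 SD, and limma gave an adjusted p of 0.815. The exact permutation test gave an unadjusted p of 0.0238. Tsc2, a brake on mTOR, stood at 1.20 (exact p = 0.103). Among 25 other feeding-suppressing peptides and receptors 16 were higher (median 0.223 SD). Ramp1, a partner of the calcitonin-type receptors, stood at -1.45 (exact p = 0.0754) and the serotonin receptor Htr2c at 11.5 (exact p = 0.103).

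**Figure D4:**
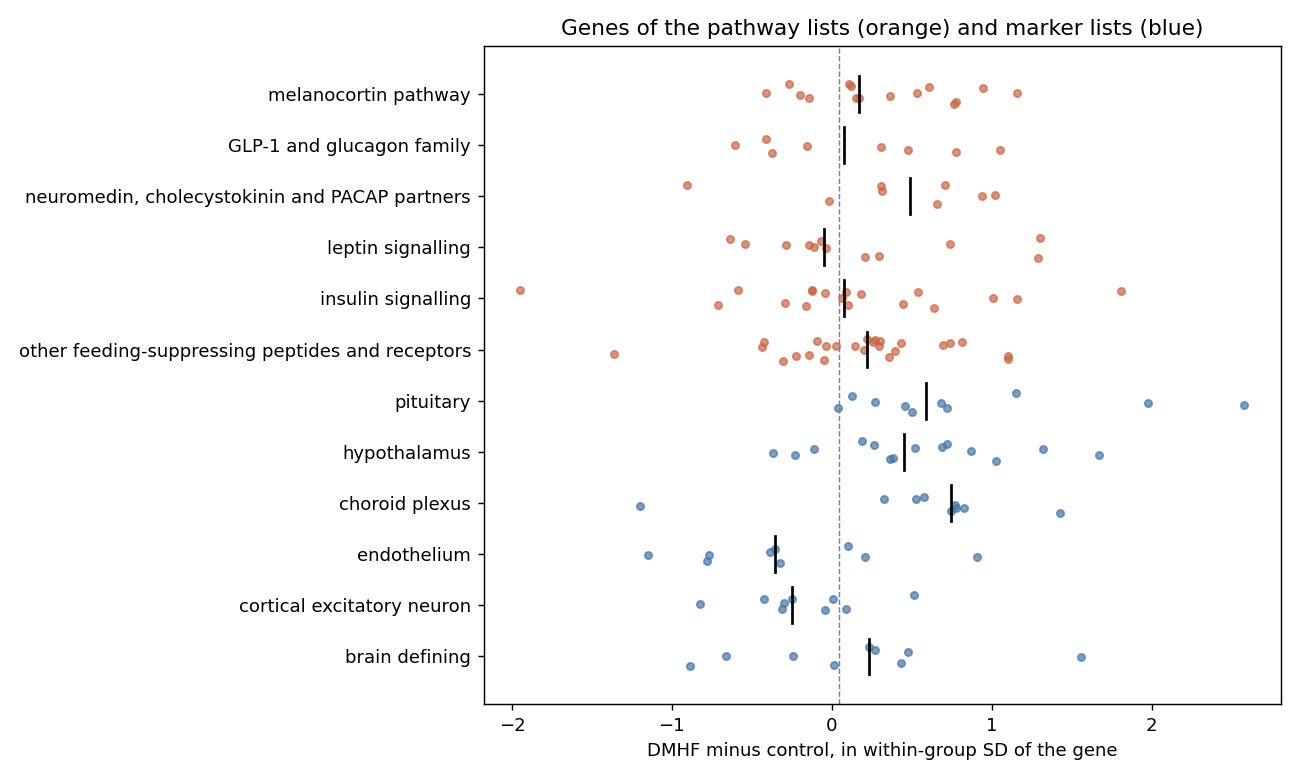
DMHF minus control for each measured gene of the pathway lists (orange) and marker lists (blue), in units of its within-group SD, with a black bar at the list's median and a dashed line at the median of all genes (0.0477). The medians of 5 of the 6 pathway lists lie above the dashed line, up to 0.486 for the partners of neuromedin, cholecystokinin and PACAP, and that of the leptin list (-0.0496) lies below it.

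Markers that define neurons, astrocytes, oligodendrocytes and microglia were checked against the labelled tissue. The 9 measured of 10 had means from 7.37 to 13.79 on the deposited log2 scale, all above the array median of 7.24. Of the members, 4 of 17 probe sets lay above that median (Cck, Nucb2, 1 of Lepr and 1 of Adcyap1), and the others had means from 6.20 up. Whether probe sets this dim measure a brain transcript was not tested. By limma 0 genes of any marker list had an adjusted p under 0.05. Means were higher in DMHF for 11 of 14 hypothalamus markers (78.6%, median 0.453 SD) and 8 of 9 choroid plexus markers (88.9%, 0.745 SD). Over all genes 53% were higher, with a median of 0.0477 SD. At an unadjusted exact permutation p under 0.05 were Hdc (6.43 millionths, p = 0.0476), Kcnj13 (-7.66, p = 0.0476) and Gfap (16.1, p = 0.0317). These are 7.14% of the hypothalamus list and 11.1% each of the choroid plexus and brain lists, against 4.83% of all genes. Pmch at 303 (exact p = 0.0794) and Folr1 at 41.5 (exact p = 0.0556) stayed above it. The summed hypothalamus list ran from -2130 to 1770 millionths from the control mean in control rats and from -609 to 2520 in DMHF rats, and the choroid plexus list from -1010 to 995 and from -175 to 2000. These sums weigh genes of wide spread most, above all Oxt (SD 1260 in control, 907 in DMHF) and Sostdc1 (451 and 499). Means were lower for 6 of 9 endothelial markers (-0.356 SD) and 6 of 9 markers of cortical excitatory neurons (-0.247 SD). That leaves 33.3% higher in each of these lists, against 53% of all genes. The part of tissue makeup in the values of Lepr, Glp1r or Nmu was not tested.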

How the data were processed

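Total RNA of 10 right brain sides (5 control, 5 DMHF) was labelled with biotin for 3' expression arrays, per the labels' protocols. The authors deposited 1 table of log2 values with 31099 probe sets, processed with R 2.7.2 per the submitters' processing notes. The log base was taken from the range of 5.25 to 14.22, and the methods of background correction, normalization and summary were not given in the sources used here. Scanner files were not used here. After removal of 57 control probe sets, 31042 were tested. Gene symbols came from the platform annotation in GEO: 20826 probe sets name 1 gene, 436 several (not used for naming) and 9780 none. Of the 20826, 20758 matched the RefSeq gene table of assembly GRCr8, with 0 symbols changed.

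DMHF was compared with control by limma 3.58.1 in R 4.3.3 (lmFit, eBayes, two-sided, no covariate, prior degrees of freedom 0.841), with Benjamini-Hochberg adjustment over all probe sets and a threshold of 0.05. On data simulated for this comparison over 31042 probe sets, the fit called 16% of shifts of 2 within-group SD, 62% of 4 SD, 92% of 6 SD and 98% of 8 SD. Of its 144 calls there, 134 were changed probe sets and 10 were not. The simulated noise was normal and independent between probe sets, and 50 probe sets were changed at each size together. The shares called need not hold for a lone change in the real data. The exact permutation test over all group assignments can reach a p of 0.00794, so an adjusted p under 0.05 would need at least 15.9% of all probe sets at that value. Samples came from separate rats per the titles, while for litter and array batch the sources used here name none. The number of arrays limits the precision. The range of array medians was 15.2 millionths of a log2 unit, and 0 pairs of arrays were identical.

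The members and lists were chosen with earlier results of these data known. Named were all members, up to 2 genes of smallest p per pathway list and the gene of most like pattern per member. Tbx19, Prl, Oxt, Sostdc1, Folr1, Kcnj13, Hdc, Pmch, Gfap and the marker medians were added after values were seen. Replicate numbers were not taken as pairs, because the titles use them only to name rats. Deviations of same-numbered rats correlated at 0.21, 0.03, 0.27, 0.09 and 0.03. Rats of different number were not compared, so these values do not settle whether the numbers mark pairs or a shared batch. Alternatives were a replicate block, the brighter 15521 probe sets, a shift to a common array median, a trended and robust variance, the exact permutation test, another probe set per gene and each rat left out.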

Additional observations from a re-analysis of the deposited data

Results flagged for a closer look

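One value stood apart from its group. On the Pomc probe set, control replicate 4 lay at -1.46 millionths of a log2 unit from the control mean, and its gap to the nearest control rat was 0.765 of the range of the 5 controls. Without it the difference was -0.743 in place of -0.379. Of 34 groups of 5 rats examined (17 probe sets in control and in DMHF), 1 held such a value, and chance gives about 1 in 20.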

How the results depend on the processing

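No member and no gene of the pathway lists passed limma under any alternative run, and the lowest adjusted p of a member was 0.613 (Lepr 1388260_a_at with the replicate block). Without DMHF replicate 2 the count over all probe sets was 1, and it ranged from 0 to 1 with single rats left out. The replicate block, on numbers that share no known pairing, left 0 member probe sets past the threshold. The exact permutation test, run once on all 10 rats, could hardly call a probe set after adjustment and says nothing on stability. The block, the trended variance, the brighter 15521 probe sets and the exact test leave each difference as it is by construction. A common array median moved all 17 differences by the same small offset, but moved single arrays against each other by up to 15.2 millionths. That is more than the within-group SD of any member (at most 10.9). Under that shift the unadjusted limma p of Nmu and Lepr 1388260_a_at was 0.425 and 0.510. With that spread added, these p cannot show how stable the 2 differences are. Pathway genes past the threshold stayed at 0 with the probe set of largest spread per gene. With single rats left out, 9 of 17 kept their sign in each fit and 8 did not: Adcyap1 1368892_at (-0.240 to 1.68 millionths), Cck (-1.6 to 6.09), Insr 1369051_at (-0.387 to 0.0947), Insr 1392043_at (-1.85 to 0.561), Lepr 1369739_at (-0.488 to 1.6), Lepr 1370604_at (-1.21 to 2.32), Mc4r (-3.36 to 3.75) and Nucb2 (-1.19 to 4.61). With so few rats, a missed threshold shows no equality.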
